A study of Mus musculus with 43 samples.

Results

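The comparison described here asked, gene by gene, whether knockdown of DDX18 changed transcript levels differently in 2 mutant lines of mouse embryonic stem cells (ESCs). For each gene the knockdown-minus-control change in EZH2 KO ESCs, whose p53 gene is not named as altered, was set against the same change in p53 KO ESCs, and the quantity reported is the first change minus the second. It rests on 8 of the 43 samples of the series, 2 control and 2 knockdown libraries in each line. All 8 libraries are RNA-seq of mRNA, isolated with beads from total RNA of ESCs cultured in serum with leukemia inhibitory factor, the strain label reads 129S1/SVImJ, and no further agent was added. Control columns are headed NT. The labels give neither the knockdown reagent, nor the time after it, nor the knockout alleles or the number of clones behind each line, and nothing says that the libraries of a group came from separate cultures, so the p-values measure only the spread between these libraries.

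DDX18 belongs to the DEAD-box family of RNA helicases, sits in the nucleolus and takes part in making ribosomes. When ribosome production is disturbed, free ribosomal proteins bind Mdm2, the ubiquitin ligase that keeps p53 low, so that p53 can activate genes of growth arrest and apoptosis. EZH2 is the catalytic subunit of Polycomb repressive complex 2 (PRC2), which methylates histone H3 at silenced developmental genes.

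The target of the knockdown was lower in both lines. Ddx18 stood at 82.5 and 89.4 FPKM in the EZH2 KO controls and at 15.5 and 17.5 FPKM with knockdown, and at 36.9 and 49.7 against 3.08 and 3.86 FPKM in p53 KO. FPKM, fragments per kilobase of transcript scaled to the reads of a library, is the authors' unit, and all changes below are differences of log2(FPKM + 1). Ddx18 fell by 2.32 in EZH2 KO and by 3.30 in p53 KO, and the difference of 0.98 ± 0.27 (SE, 2 libraries per group) did not pass (limma, adjusted p = 0.0947). The changes of the lines did not overlap, however (limma, unadjusted p = 0.00654), so equal knockdown is not shown. In the differences below, depth of knockdown and genotype cannot be told apart. Ezh2 was at 4.12 and 2.92 FPKM in the EZH2 KO controls and at 44.2 and 38.4 FPKM in the p53 KO controls. Trp53, the p53 gene, was detected in p53 KO at 112 and 126 FPKM in controls and 259 and 194 FPKM with knockdown, where it rose by 0.91 (limma, adjusted p = 0.00952; after rescaling 0.50 with adjusted p = 0.0505). In EZH2 KO it stood at 449 and 445 and 441 and 432 FPKM. Transcript is thus present in the line labelled p53 KO, and as the allele is not given its level does not check that label. Levels of the lines come from separate tables and are set side by side without a test.

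The depth of these libraries is unknown. The 10 defining ESC markers were above 0 in all 8 libraries and summed to 3783 and 3680.0 FPKM in EZH2 KO controls against 3103 and 3033 FPKM with knockdown, and to 2617 and 2769 against 3602 and 2540 FPKM in p53 KO. The 18 fibroblast markers, 5 to 10 of them at 0, summed to 31.8 and 21.7 against 19.8 and 18.2 FPKM in EZH2 KO and to 32.2 and 32.2 against 21.2 and 19 FPKM in p53 KO, and 11 blood cell markers to 11.7 to 21.9 FPKM with 6 to 9 at 0. The 28 trophectoderm genes summed to 171 and 161 against 249 and 227 FPKM in EZH2 KO and to 282 and 241 against 402 and 450.1 FPKM in p53 KO, and the 25 primitive endoderm genes to 586 and 539 against 779 and 882 FPKM and to 656 and 592 against 628 and 518 FPKM. The 23 primed epiblast and neuroectoderm genes summed to 324 and 310.3 against 221 and 239 FPKM in EZH2 KO. In p53 KO they summed to 419 and 380.1 against 317 and 281 FPKM. Fibroblast and primed epiblast sums were thus lower with knockdown in both lines, and ESC marker sums in EZH2 KO. Trophectoderm sums were higher in both lines and primitive endoderm sums higher in EZH2 KO. The part of these shifts in the results below was not tested. Replicates lay farther apart in p53 KO (within-group SD over genes 0.37 in controls and 0.43 with knockdown) than in EZH2 KO (0.30 and 0.29). The median tested gene was also shifted with knockdown, by 0.31 in p53 KO and by 0.09 in EZH2 KO, which puts the median difference at -0.22. The main counts are therefore also given after rescaling, in which each library's values were divided by 1 factor, the median over genes of their ratio to the geometric mean of the table. The factors were 0.87 and 0.88 for the p53 KO controls, 1.22 and 1.11 for the p53 KO knockdowns and 0.95 to 1.05 in EZH2 KO. In bulk libraries, fewer cells of a type and less RNA of a gene per cell cannot be told apart.

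The knockdown effect differed between the lines for 179 of 12810 tested genes, 1.4% (limma, adjusted p under 0.05). For 85 of them (0.664%) the change was higher in EZH2 KO and for 94 (0.734%) it was lower. In all 179 the knockdown-minus-control differences of the lines did not overlap. The calls rest on these same values, so this is no separate support. Genes without a called difference, such as Ddx18 and Trp53, showed no overlap either. After rescaling 190 genes passed (1.49%), 159 higher (1.25%) and 31 lower (0.243%), so the share of higher genes went from 47.5% to 83.7%. All 85 higher genes passed under both scalings, but only 31 of the 94 lower ones. Rescaling moved the median difference from -0.22 to 0.03, which helps higher genes to pass and hinders lower ones. These shares are therefore no separate support for the higher genes. Taken alone, 214 genes (1.67%) changed in EZH2 KO, 196 up (1.53%) and 18 down (0.141%), and 2811 (21.9%) in p53 KO, 2377 up (18.6%) and 434 down (3.39%). After rescaling the p53 KO split turned to 592 up and 964 down. These counts come from a fit in which both lines share 1 spread; with each table fitted by itself, 999 genes changed in EZH2 KO and 380 in p53 KO, so which line has more calls depends on that choice. The number of differing genes rested on single libraries. It was 0 without either EZH2 KO knockdown library or either EZH2 KO control library, 3 without p53 KO control 1, 0 without p53 KO control 2, 126 without p53 KO knockdown 1 and 622 without p53 KO knockdown 2 (limma). In these fits 1979 to 3484 genes had an unadjusted p under 0.05. None of the called differences named below passed when any EZH2 KO library was left out.

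Genes were sorted by the 3 tests together. A gene counts as changed in 1 line alone where it passed in that line, did not pass in the other and its difference passed too. By this reading 27 genes (0.211%) changed in EZH2 KO alone, 26 up and 1 down, and 137 (1.07%) in p53 KO alone, 92 up and 45 down. In both lines 74 genes (0.578%) changed the same way, 63 up and 11 down, and 11 (0.0859%) changed in opposite directions. In these 4 classes 18, 73, 30 and 5 genes kept their class after rescaling. The other 2 of the 179 genes, Oxct2a and Blvrb, passed for the difference alone.

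**Figure D1:**
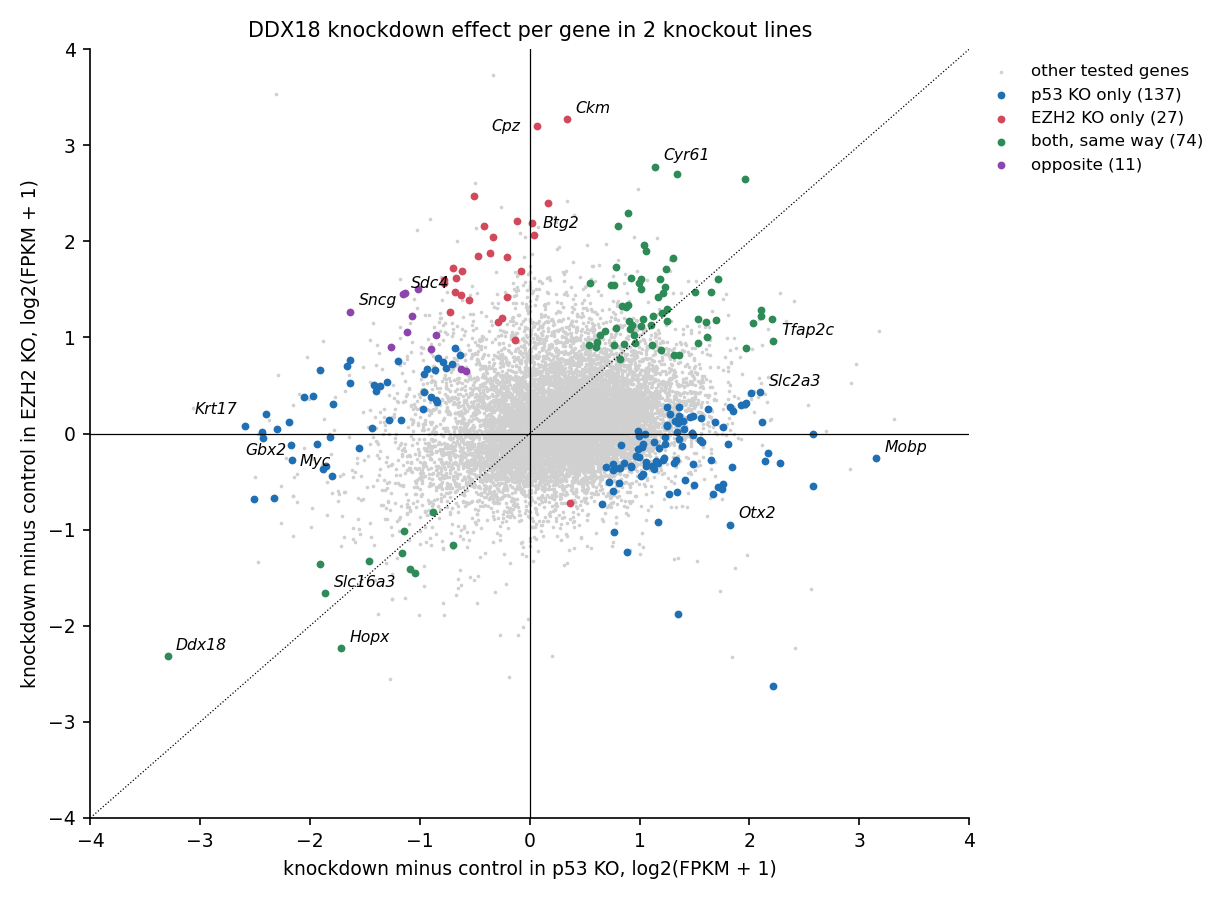
Change with DDX18 knockdown in p53 KO (x axis) and in EZH2 KO (y axis), both as differences of log2(FPKM + 1), 1 point per tested gene and colours for the classes; the dotted line marks equal change. The 27 genes changed in EZH2 KO alone lie near the vertical axis, the 137 changed in p53 KO alone near the horizontal axis, and all 11 opposite genes are at the upper left.

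Of the 26 genes that rose in EZH2 KO alone, 18 stayed in that class after rescaling. Sfn, Plaur, Gpx3, Gsn, Camk2a and Synpo2l then counted as opposite. Cited4 and Ahnak then counted as changed in p53 KO alone, so the class of these genes depended on the scaling. Ckm, the creatine kinase of muscle (chr7:19411093-19421583 on mm10, ENSMUSG00000030399.1), went from 0.419 and 0.184 FPKM in EZH2 KO controls to 11.1 and 12 FPKM with knockdown. In p53 KO it was at 0 and 0 FPKM in controls and 0.337 and 0.202 FPKM with knockdown. All values in p53 KO thus stayed below 1 FPKM while both EZH2 KO knockdown libraries stood above every other library, and the changes of 3.27 and 0.34 differed by 2.93 ± 0.33 (SE, limma, adjusted p = 0.026).

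Cpz, a secreted carboxypeptidase (chr5:35502217-35525698), had the largest called positive difference, 3.13 ± 0.28 (SE, limma, adjusted p = 0.0236). It rose from 3.05 and 3.44 to 39.6 and 36.3 FPKM in EZH2 KO. In p53 KO it was listed at 0 in both controls and at 0.1 and 0 FPKM with knockdown, so all its p53 KO values were at or near 0. Msln, a surface glycoprotein of mesothelium, rose from 1.93 and 3.1 to 21.1 and 15.8 FPKM in EZH2 KO and was at 0.378 and 0.846 against 0 and 0.256 FPKM in p53 KO. The membrane transporter gene Slc4a11 rose from 13.3 and 12.9 to 64.2 and 59.9 FPKM, with 2.17 and 1.42 against 0.75 and 1.47 FPKM in p53 KO. The p53 KO groups of Slc4a11 overlapped, whereas for Msln they lay just apart, below 1 FPKM, with knockdown the lower. Their differences were 2.98 and 2.57 (limma, adjusted p = 0.0329 and 0.0306).

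Ltb4r2, a leukotriene B4 receptor, rose from 3.6 and 3.52 to 26.1 and 20.4 FPKM in EZH2 KO, with 0.195 and 0 against 0.496 and 0 FPKM in p53 KO. Matn1, a cartilage matrix protein, rose from 0.494 and 0.186 to 4.19 and 6.17 FPKM and never exceeded 0.225 FPKM in p53 KO. Anxa3, an annexin, rose from 1.004 and 1.27 to 8.13 and 9.72 FPKM, while its p53 KO groups, 2.08 and 3.37 against 1.76 and 3.16 FPKM, overlapped. Their differences were 2.24, 2.17 and 2.33 (limma, adjusted p = 0.0455, 0.049 and 0.0462). Across the 26 genes that rose, the change ran from 0.98 to 3.27 in EZH2 KO (median 1.71) and from -0.78 to 0.34 in p53 KO (median -0.35). Other higher genes of the class include Gsx1, Cryab, Ahnak, Synpo2l, Itgb4, Camk2a, Gsn, Gpx3, Edn1, Plaur, Ccdc184, Btg2, Cited4, Sfn, Tpm1, Tmc8 and Agpat4, and the gene that fell in EZH2 KO alone is Eif4b, a translation initiation factor (-0.73 against 0.37), whose difference missed after rescaling. With a pseudocount of 0.1, which weighs low values more, the differences of Cpz, Msln, Ckm, Ltb4r2, Anxa3, Matn1 and Btg2 kept their direction but no longer passed (limma, adjusted p = 0.0757, 0.0613, 0.116, 0.348, 0.0504, 0.164 and 0.0856), and that of Slc4a11 did.

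Of 33 tested p53 targets of growth arrest and feedback, 6 rose in EZH2 KO, where 1.53% of all genes rose, and 8 rose in p53 KO, where 18.6% did, and none fell in either line. The difference passed for Btg2 (higher) and Gadd45a (lower), beside 1.4% of all genes. Of 14 tested apoptosis targets, 1 rose in EZH2 KO, none changed in p53 KO and no difference passed. Over both lists the median change was 0.49 in EZH2 KO and 0.25 in p53 KO, beside medians of 0.09 and 0.31 over all tested genes. The median differences of the lists were 0.18 and 0.33 beside -0.22 for all genes, and 0.42 and 0.57 beside 0.03 after rescaling.

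Btg2, an antiproliferative p53 target, rose from 10.7 and 9.72 to 44.2 and 48 FPKM in EZH2 KO and read 0.946 and 1.59 FPKM in p53 KO controls and 0.884 and 1.83 FPKM with knockdown. Its p53 KO groups overlapped fully, and the difference was 2.03 ± 0.35 (SE, limma, adjusted p = 0.0467). Gadd45a, a growth-arrest and DNA-damage gene, did the reverse: it read 24.3 and 25.7 FPKM in EZH2 KO controls and 21.7 and 18.3 FPKM with knockdown, but rose from 17.6 and 16.1 to 49.4 and 48.6 FPKM in p53 KO (difference -1.80, limma, adjusted p = 0.026). Without knowledge of the read strand, the uncharacterised entry E230016M11Rik, which shares 809 bases with Gadd45a and had changes of -0.13 and 1.37, cannot be told apart from it.

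Cdkn1a and Mdm2, p53 targets named here after their values were seen, rose in both lines. Cdkn1a, the cyclin-dependent kinase inhibitor p21, went from 44.1 and 43.6 to 132 and 139 FPKM in EZH2 KO and from 5.98 and 5.23 to 10.4 and 14.4 FPKM in p53 KO. Mdm2 went from 40.9 and 40.3 to 88 and 86.4 FPKM and from 9.66 and 9.17 to 19.1 and 18.1 FPKM. Neither gene's groups overlapped in either line, and their differences, 0.60 and 0.17, did not pass (limma, adjusted p = 0.21 and 0.628). After rescaling, Cdkn1a no longer passed in p53 KO (change 0.64, limma, adjusted p = 0.0702) while Mdm2 did (0.53, adjusted p = 0.0387). Perp, a plasma membrane protein of p53-dependent apoptosis, rose in EZH2 KO from 20.9 and 24.6 to 98.6 and 86.2 FPKM and went from 0.425 and 1.07 to 1.68 and 1.87 FPKM in p53 KO, where it did not pass (difference 1.28, limma, adjusted p = 0.0781). Bax, which promotes apoptosis at mitochondria and has the highest mean level of that list, was at 249 and 251 against 270.2 and 284 FPKM in EZH2 KO and at 114 and 110.0 against 116 and 161 FPKM in p53 KO.

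**Figure D2:**
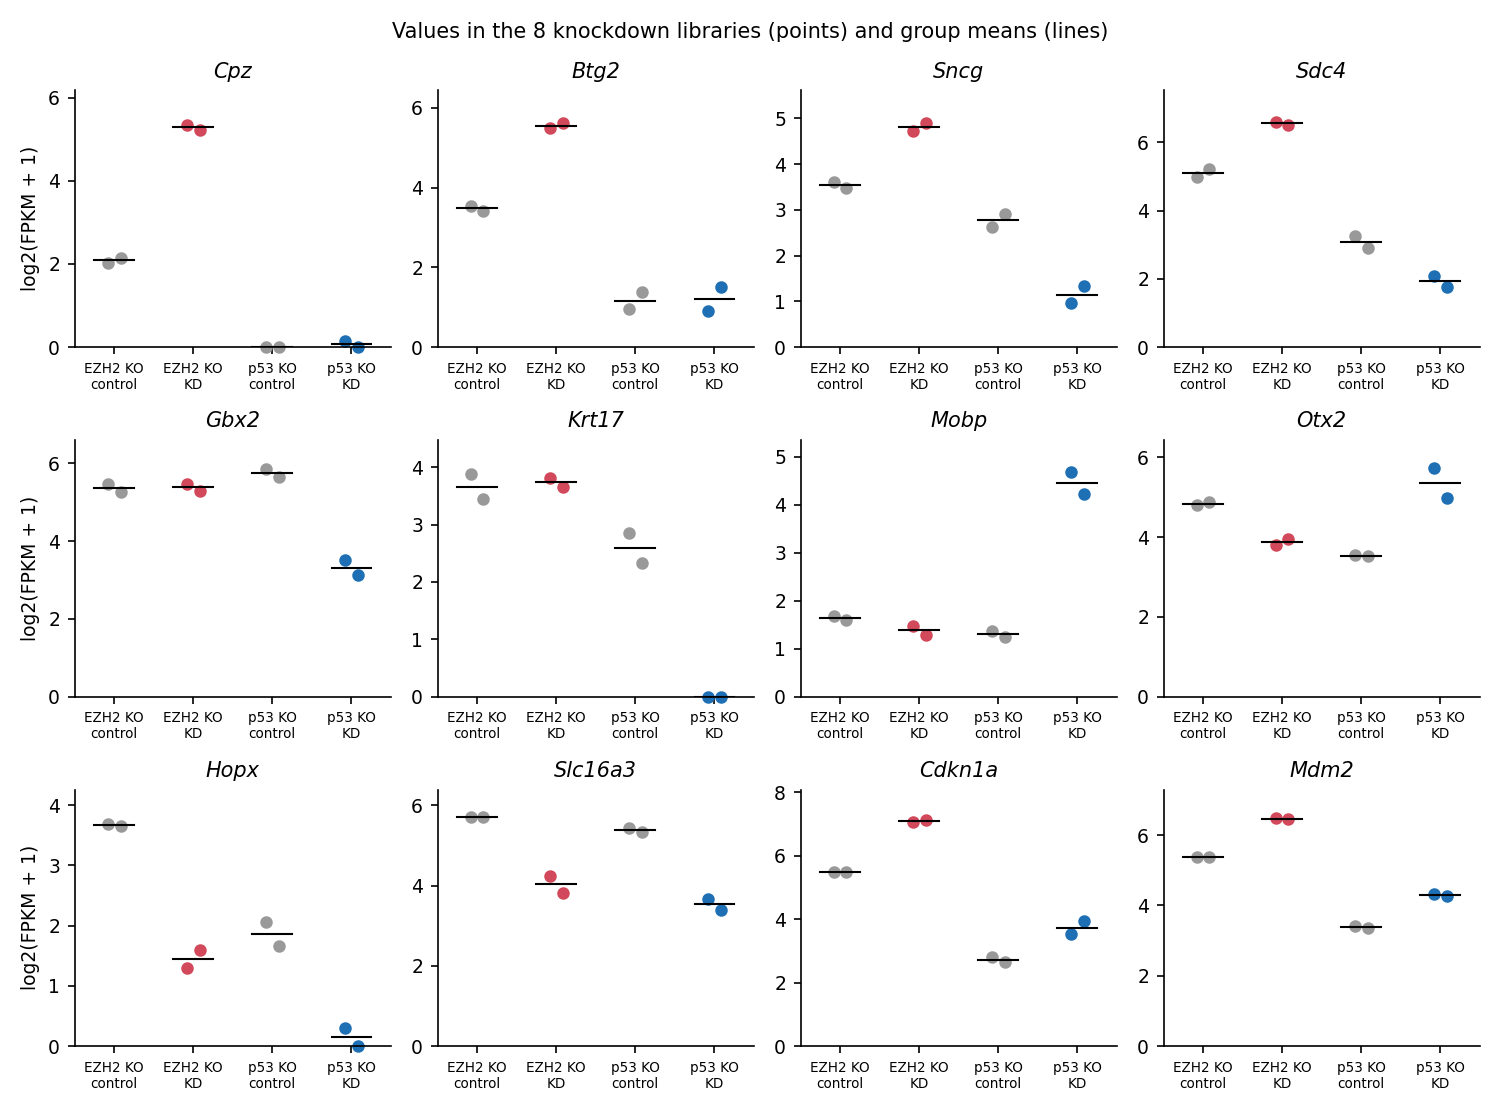
Values of 12 genes as log2(FPKM + 1) on the y axis in each of the 8 libraries (points) with group means (lines); KD is DDX18 knockdown. Cpz and Btg2 were higher with knockdown in EZH2 KO alone, Sncg and Sdc4 moved in opposite directions, Gbx2, Krt17, Mobp and Otx2 moved in p53 KO, and Hopx, Slc16a3, Cdkn1a and Mdm2 moved the same way in both lines.

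Promoters were searched for the core of the p53 response element, because that is the sequence that listed p53 targets may share. The motif was CNNG with each N an A or a T, then 6 bases of any kind, then the same pattern of 4 bases again. It is its own reverse complement, so both strands are covered. Windows from 250 bases before to 50 after a start site (RefSeq, GRCm38.p6) were found for 58 of the 85 genes with a higher difference, and 3 of these genes (5.17%), namely Ckm, Myo1c and Sfn, held the motif, against 556 of 8897 tested genes with a window (6.25%). Among the listed p53 targets 8 of 38 (21.1%) held it. The binding core of TEAD factors, GGAATG on either strand, was in 13.8% of the genes with a higher and 15.2% of those with a lower difference, against 14.3% of tested genes. The windows of Ckm (chr7:19410844-19411143, plus strand) and Sfn (chr4:133602119-133602418, minus strand), which rose in EZH2 KO alone, and of the listed target Plk2 (chr13:110394794-110395093, plus strand) are shown with the p53 core match in capitals. A match in a window is a description of letters and not of binding.
Ckm: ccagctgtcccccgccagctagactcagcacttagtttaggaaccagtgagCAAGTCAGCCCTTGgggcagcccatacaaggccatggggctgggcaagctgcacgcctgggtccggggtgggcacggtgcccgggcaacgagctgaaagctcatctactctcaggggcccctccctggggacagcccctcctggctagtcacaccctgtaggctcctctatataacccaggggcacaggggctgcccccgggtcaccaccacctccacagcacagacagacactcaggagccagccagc
Sfn: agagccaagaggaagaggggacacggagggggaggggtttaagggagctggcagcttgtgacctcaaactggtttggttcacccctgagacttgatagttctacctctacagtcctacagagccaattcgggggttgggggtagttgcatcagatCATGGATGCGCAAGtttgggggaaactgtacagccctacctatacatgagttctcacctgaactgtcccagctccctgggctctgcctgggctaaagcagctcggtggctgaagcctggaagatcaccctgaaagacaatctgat
Plk2: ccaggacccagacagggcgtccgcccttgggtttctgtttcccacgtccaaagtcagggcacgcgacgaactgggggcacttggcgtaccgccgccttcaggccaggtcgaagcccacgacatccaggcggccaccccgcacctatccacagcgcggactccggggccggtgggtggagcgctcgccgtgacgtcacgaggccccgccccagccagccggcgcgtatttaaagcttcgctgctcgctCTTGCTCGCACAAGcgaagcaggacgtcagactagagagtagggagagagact

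The match lies 199 bases before the start site in Ckm, 95 before in Sfn and 3 before in Plk2. Sfn, the cell-cycle inhibitor 14-3-3 sigma, rose from 49.1 and 48.4 to 124 and 136 FPKM in EZH2 KO and read 22.2 and 18.3 FPKM in p53 KO controls and 15.2 and 11.8 FPKM with knockdown. Its groups did not overlap in either line and lay in opposite order, and after rescaling the drop in p53 KO passed too (difference 1.95 ± 0.24, SE, limma, adjusted p = 0.0304). Plk2, a polo-like kinase, was at 9.03 and 9.53 against 25.1 and 24.9 FPKM in EZH2 KO and at 3.05 and 1.71 against 1.73 and 3.29 FPKM in p53 KO. Its difference of 1.29 did not pass (limma, adjusted p = 0.116).

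All 11 genes that changed in opposite directions rose in EZH2 KO and fell in p53 KO. They are Sncg, Sdc4, Pdzd2, Mcee, Dgka, Anxa2, Bcam, Ptrf, Ddit4, Dnmt3l and Lamc1. Their changes ran from 0.65 to 1.51 in EZH2 KO and from -1.63 to -0.58 in p53 KO. After rescaling 5 of them stayed in this class.

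Sncg, which encodes gamma-synuclein (chr14:34370273-34374789), went from 11.2 and 10.1 to 25.3 and 29 FPKM in EZH2 KO and from 5.22 and 6.54 to 0.945 and 1.51 FPKM in p53 KO. The groups of each line were well apart, in opposite order, and the difference was 2.90 ± 0.29 (SE, limma, adjusted p = 0.0236). Sdc4, the heparan sulfate proteoglycan syndecan-4, went from 30.7 and 36.6 to 95.8 and 91.1 FPKM and from 8.64 and 6.45 to 3.26 and 2.38 FPKM (difference 2.61). Pdzd2, a multi-PDZ-domain protein gene, went from 4.77 and 4.67 to 13.8 and 15.8 FPKM and from 5.44 and 4.54 to 1.66 and 1.78 FPKM (difference 2.59). In neither gene did controls and knockdowns of a line overlap.

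Mcee, the methylmalonyl-CoA epimerase gene, rose from 2.04 and 2.56 to 8.65 and 8.04 FPKM and fell from 5.18 and 3.88 to 1.99 and 1.46 FPKM. Dgka, a diacylglycerol kinase, went from 8.04 and 9.09 to 21.8 and 20.9 FPKM and from 3.6 and 5.66 to 1.41 and 1.88 FPKM, and Anxa2, annexin A2, from 14.2 and 10.6 to 28.8 and 24.6 FPKM and from 17 and 18.7 to 7.55 and 7.86 FPKM. For Dgka and Anxa2 the rise in EZH2 KO passed narrowly (limma, adjusted p = 0.0478 and 0.0416) and did not pass after rescaling (adjusted p = 0.0672 and 0.0523), while both differences did. Ddit4, an inhibitor of mTORC1 induced by stress, rose from 30.2 and 29.2 to 57.9 and 53 FPKM and fell from 5.36 and 5.05 to 2.34 and 2.31 FPKM. Lamc1, the laminin gamma 1 chain, rose from 91.6 and 89.5 to 141 and 144 FPKM and fell from 75.6 and 72.7 to 50.2 and 48.1 FPKM, a difference of 1.23 that rests on replicates lying close together. In both genes the rise in EZH2 KO missed the threshold after rescaling.

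Rescaling moved the median p53 KO change from 0.31 to 0, which favours falls there, so keeping a fall is no separate support. All 45 genes that fell in p53 KO alone kept their class after rescaling, with a median change of -1.56 there and of 0.35 in EZH2 KO. Among them 3 belong to the FGF-ERK list. Of its 24 tested members these 3 had a higher difference and 0 a lower one, beside 0.664% and 0.734% of all genes. In p53 KO 5 of the 24 fell and 2 rose (3.39% and 18.6% over all genes). None changed in EZH2 KO (1.67% over all genes). Gbx2, a homeobox factor of the naive pluripotent state (chr1:89927955-89931179), fell from 57.1 and 48.9 to 10.4 and 7.72 FPKM in p53 KO. In EZH2 KO it read 43 and 37.6 FPKM in controls and 42.9 and 38.4 FPKM with knockdown. These EZH2 KO values overlapped, and the difference was 2.45 ± 0.26 (SE, limma, adjusted p = 0.0244). The uncharacterised entry D130058E05Rik shares 947 bases with Gbx2 and had changes of -0.23 and -1.09.

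Etv4, an ETS factor downstream of FGF signalling, fell from 44.7 and 40.1 to 9.9 and 4.94 FPKM in p53 KO, with 72.4 and 72.2 against 71.8 and 68.6 FPKM in EZH2 KO. Myc fell from 120.1 and 105 to 33.3 and 17.3 FPKM, with 102 and 91 against 89 and 88 FPKM. Both had knockdown values in p53 KO that lay far below every other library. Their differences were 2.39 and 2.05 (limma, adjusted p = 0.0424 and 0.0498). Over the FGF-ERK list the median difference was 0.27, and 0.57 after rescaling, beside -0.22 and 0.03 over all genes.

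Foxd3, a pluripotency and neural crest factor, fell in p53 KO from 53.6 and 55.3 to 14 and 15.9 FPKM and read 56.9 and 53.9 against 39.2 and 41.9 FPKM in EZH2 KO. L1td1, an RNA-binding protein of pluripotent cells, fell from 186 and 177 to 57.9 and 64.7 FPKM and read 214 and 173 against 171 and 175 FPKM. The drop in p53 KO left no overlap, and both differences, 1.36 and 1.40, passed under both scalings (limma, adjusted p = 0.0345 and 0.0395 as deposited). Foxd3 was also lower without overlap in EZH2 KO, where its change of -0.44 did not pass (limma, adjusted p = 0.159).

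Krt17, an epithelial keratin, was at 6.25 and 4.05 FPKM in p53 KO controls and listed at 0 in both knockdown libraries, with 13.7 and 9.93 against 13.1 and 11.6 FPKM in EZH2 KO. Aire, the autoimmune regulator of thymic epithelium, fell from 10.5 and 8.09 to 0.83 and 1.04 FPKM, with 11.7 and 7.87 against 9.59 and 13 FPKM. Aire shares 1295 bases with Dnmt3l, which changed in opposite directions at a far higher level (230.1 and 224 to 363 and 364 FPKM and 224 and 237 to 153 and 144 FPKM), and reads there cannot be assigned without the strand. Nefl, the neurofilament light chain, fell from 19.3 and 16.9 to 3.02 and 5.38 FPKM and read 7.43 and 7.38 against 12.1 and 12.5 FPKM in EZH2 KO. The annotated Nefl locus, 5234 bases, lies wholly within that of Nefm (changes 0.86 and -0.47). Exoc3l, an exocyst-related gene, fell from 20.5 and 16.7 to 2.76 and 2.13 FPKM, with 20.7 and 20.3 against 10.6 and 14.5 FPKM.

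Of 33 tested members of the glycolysis and hypoxia list, 1 had a higher and 1 a lower called difference. Over all genes the shares were 0.664% and 0.734%. Pdk1, a pyruvate dehydrogenase kinase, fell in p53 KO from 16.6 and 20.5 to 5.65 and 3.58 FPKM and read 19.3 and 19.8 against 18.5 and 19.7 FPKM in EZH2 KO (difference 1.78). Slc2a3, the glucose transporter GLUT3, rose in p53 KO from 94.9 and 106 to 499 and 374 FPKM and read 95.5 and 99.2 against 131 and 131 FPKM (difference -1.67). The p53 KO knockdown values of Slc2a3 lay well above those of all other libraries. In the integrated stress response list, Cars, a cysteinyl-tRNA synthetase, fell in p53 KO from 56.9 and 59.6 to 29.8 and 21.5 FPKM. In EZH2 KO it read 58.5 and 58.5 against 61.6 and 67.8 FPKM. With Ddit4 this makes 2 of 28 tested members with a called difference, beside 1.4% of all genes. Within the list 4 members rose and 10 fell in p53 KO (18.6% and 3.39% over all genes), and 2 rose and 1 fell in EZH2 KO (1.53% and 0.141%).

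The 92 genes that rose in p53 KO alone had a median change of 1.34 there and of -0.24 in EZH2 KO. Their direction is that of the general shift in p53 KO, and 28 of the 92 kept their class after rescaling. Mobp, a myelin protein gene (chr9:120149741-120176091), rose from 1.59 and 1.37 to 24.9 and 17.8 FPKM in p53 KO and read 2.19 and 2.03 against 1.78 and 1.45 FPKM in EZH2 KO. Its 2 p53 KO knockdown libraries stood several times above the other 6. The difference was -3.41 ± 0.32 (SE, limma, adjusted p = 0.0236).

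Otx2, a homeobox factor of the primed epiblast and forebrain (chr14:48657678-48667513), rose from 10.7 and 10.4 to 52.3 and 30.3 FPKM in p53 KO. In EZH2 KO it went the other way, from 26.8 and 28.3 to 13 and 14.6 FPKM, without passing (limma, adjusted p = 0.1). Groups overlapped in neither line, and the difference of -2.77 ± 0.34 passed (SE, limma, adjusted p = 0.0304). Of the 18 tested members of the primed epiblast and neuroectoderm list, Otx2 was the only lower and Foxd3 the only higher difference. Over all genes 0.734% were lower and 0.664% higher. In p53 KO 1 member of that list rose and 4 fell, beside 18.6% and 3.39% of all genes. None changed in EZH2 KO, which is near the background of 1.67%. The median change of the list in p53 KO was -0.19, beside 0.31 over all genes.

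Ly6g6e, a Ly6-family surface protein, rose from 12.4 and 7.98 to 63.6 and 42.8 FPKM in p53 KO, with 30.6 and 32.2 against 21.4 and 29.5 FPKM in EZH2 KO. Ptch1, the Hedgehog receptor, rose from 12.4 and 10.8 to 56.1 and 28.7 FPKM, with 20.7 and 17.8 against 12.6 and 12.9 FPKM. Ist1, a component of the ESCRT-III membrane-scission machinery, rose from 6.3 and 4.35 to 23.5 and 15.1 FPKM, with 7.42 and 8.2 against 4.44 and 4.93 FPKM. In all 3 genes both lines had groups that did not overlap, in opposite order, and the 2 p53 KO knockdown libraries also differed from each other, most in Ptch1. Vps37d, an ESCRT-I subunit, rose from 0.668 and 0.452 to 6.03 and 5.47 FPKM, Itfg2, a component of a nutrient-sensing complex at lysosomes, from 9.55 and 7.37 to 32 and 20.4 FPKM and Aoc2, an amine oxidase, from 1.54 and 2.07 to 10.7 and 7.52 FPKM. In EZH2 KO, Itfg2 and Aoc2 were lower in both knockdown libraries than in both controls without passing, and the Vps37d groups overlapped.

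Eif4e, the cap-binding translation factor, passed in p53 KO at a low level, 2.93 and 2.29 against 5.55 and 5.76 FPKM, with 7.52 and 5.88 against 2.84 and 1.78 FPKM in EZH2 KO. The wild-type table lists the same gene at 111 and 112 FPKM in controls, so its level differs widely between tables. After rescaling it was the fall in EZH2 KO that passed and not the p53 KO change. The largest negative difference of all, -4.84, belongs to the unnamed transcript AL663030.1 inside the Mafg locus, at 5.87 and 4.54 against 0.000252 and 0.00248 FPKM in EZH2 KO and 2.35 and 0.000393 against 5.94 and 9.44 FPKM in p53 KO. Of its p53 KO controls 1 was near 0 and 1 was not.

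For several core and naive pluripotency genes the call depended on the scaling. Nanog rose from 56.3 and 72.7 to 122 and 105 FPKM in p53 KO and read 102 and 101 against 74.8 and 67.6 FPKM in EZH2 KO. Esrrb rose from 128 and 120.1 to 198 and 204 FPKM and read 153 and 141 against 119 and 112 FPKM, and Sall4 rose from 86 and 82.3 to 143 and 154 FPKM and read 87.2 and 88 against 71.1 and 65.5 FPKM. In all 3 the order of the groups was opposite between the lines with no overlap, and Sall4 shares 1060 bases with the entry Gm14261 (changes -0.54 and 1.05). Their differences of -1.32, -1.04 and -1.16 passed as deposited (limma, adjusted p = 0.0475, 0.0442 and 0.0424) and missed after rescaling (-1.02, -0.74 and -0.86, adjusted p = 0.0667, 0.0911 and 0.0776). The difference likewise missed after rescaling for Id3, a BMP-responsive inhibitor of bHLH factors, at 36.3 and 27.8 against 73.2 and 77.3 FPKM in p53 KO and 23.5 and 21.6 against 18.4 and 18.5 FPKM in EZH2 KO (difference -1.49, after rescaling -1.19 with adjusted p = 0.0581). As deposited, the difference was higher for 3 core members (Dnmt3l, Foxd3 and L1td1) and lower for 2. In the naive list it was higher for 1 (Gbx2) and lower for 2. Over all genes 0.664% were higher and 0.734% lower. After rescaling each list had 3 higher and 0 lower differences, beside 1.25% and 0.243%. Of 22 core members 1 rose in EZH2 KO, and 5 rose and 3 fell in p53 KO. Of 22 naive members none changed in EZH2 KO, and 8 rose and 4 fell in p53 KO. Over all genes 1.67% changed in EZH2 KO, which leaves 0 of 22 near the background, and 18.6% rose and 3.39% fell in p53 KO.

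Of the 74 genes that changed the same way in both lines, Cyr61 differed in size upward and Tfap2c downward. Cyr61, a matricellular target of YAP and TEAD, rose from 14.2 and 11.6 to 91.7 and 96.4 FPKM in EZH2 KO and from 20.5 and 25 to 43.2 and 60.3 FPKM in p53 KO. The rise was larger in EZH2 KO by 1.64 ± 0.28 (SE, limma, adjusted p = 0.0462), and after rescaling the p53 KO change no longer passed. Ctgf, a related YAP target named after its values were seen, rose from 14.5 and 15.6 to 46.8 and 46.2 FPKM and from 34.2 and 30.4 to 48.4 and 46.8 FPKM, with a difference of 1.02 that missed as deposited (limma, adjusted p = 0.0517) and passed rescaled (adjusted p = 0.0289). Among 20 tested YAP-TEAD targets, 6 rose in EZH2 KO (1.53% over all genes), and 8 rose and 1 fell in p53 KO (18.6% and 3.39%). Tfap2c, a factor of trophectoderm and germ cells, rose from 9.37 and 8.81 to 17.7 and 19.6 FPKM in EZH2 KO. In p53 KO it rose from 13.7 and 13.3 to 62 and 71.2 FPKM (difference -1.26, after rescaling -0.96, limma, adjusted p = 0.0885). It was the only 1 of 22 tested trophectoderm genes with a called difference, beside 1.4% of all genes. The list as a whole went the other way, with 15 of the 22 differences positive. Its median difference was 0.50, and 0.76 after rescaling, beside -0.22 and 0.03 over all genes.

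Glycolysis genes were among those that fell in both lines. Slc16a3, the lactate exporter MCT4, fell from 51 and 50.9 to 18 and 13.2 FPKM in EZH2 KO and from 42.3 and 39.7 to 11.8 and 9.46 FPKM in p53 KO. Ldha, lactate dehydrogenase A, fell from 375 and 403 to 159 and 143 FPKM and from 288 and 359 to 107 and 67.4 FPKM. The differences of 0.20 ± 0.26 and 0.55 ± 0.32 (SE) did not pass, which does not show that the drops were equal. Of the same glycolysis and hypoxia list, 3 members fell in EZH2 KO, namely these 2 and Tpi1, and 9 fell and 4 rose in p53 KO, beside 0.141% lower in EZH2 KO and 3.39% lower and 18.6% higher in p53 KO over all genes. Hopx, a homeodomain-only cofactor, fell from 11.9 and 11.6 to 1.46 and 2.01 FPKM and from 3.18 and 2.18 to 0.224 and 0 FPKM, and Thy1, a surface glycoprotein, from 20.6 and 13.1 to 6.0 and 5.95 FPKM and from 18.7 and 19.5 to 5.73 and 6.86 FPKM.

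Genes that rose in both lines under both scalings numbered 19. Irs2, the insulin receptor substrate, rose from 10.2 and 6.78 to 26.9 and 28 FPKM in EZH2 KO and from 13 and 7.67 to 33.8 and 36.4 FPKM in p53 KO. Ptpn14, a phosphatase that restrains YAP, rose from 34.7 and 28.2 to 86.8 and 90.4 FPKM and from 3.9 and 4.02 to 14.4 and 11.9 FPKM, with a difference of -0.03 ± 0.24 (SE). Its change was thus of similar size in the lines although its FPKM was several times lower in the p53 KO table. Tgfb1i1, a focal adhesion adaptor, rose from 2.14 and 2.75 to 11.5 and 10.8 FPKM and from 4.41 and 4.995 to 12.1 and 14.1 FPKM. Grina, Fam195b and Zfp362 rose by 1.29, 1.25 and 1.19 in EZH2 KO and by 2.10, 1.20 and 2.21 in p53 KO.

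None of the 47 large-subunit and 33 small-subunit ribosomal protein genes passed, nor any of 100 biogenesis factors or 20 genes of the RNA polymerase I machinery, and none of them changed in EZH2 KO; over all genes 1.4% had a called difference and 1.67% changed in EZH2 KO, so a count of 0 is near the background for the smaller of these lists. After rescaling 1 biogenesis factor had a higher difference. In p53 KO, 14 biogenesis factors rose and 8 fell, and 2 large-subunit genes rose and 2 fell. In addition 5 small-subunit genes and 1 RNA polymerase I gene rose. These shares of rising genes are near or under the 18.6% of all genes. The fall of 8 of 100 biogenesis factors is above the 3.39% of all genes, and that of 2 of 47 large-subunit genes is near it. Fbl, the methyltransferase fibrillarin, read 399 and 361 against 337 and 368 FPKM in EZH2 KO and 457 and 373 against 557 and 450.3 FPKM in p53 KO, with overlap in both lines. Median differences of these 4 lists lay between -0.24 and -0.18 as deposited and between 0.04 and 0.12 after rescaling, beside -0.22 and 0.03 over all genes. The S phase list (30 tested, median difference -0.34), the G2 and mitosis list (28, -0.10), the PRC2 subunits (13, -0.36) and the Hox genes (15, -0.40) also had none, with 6 Hox genes rising in p53 KO (18.6% over all genes) and none changing in EZH2 KO, which is near the background of 1.67%.

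**Figure D3:**
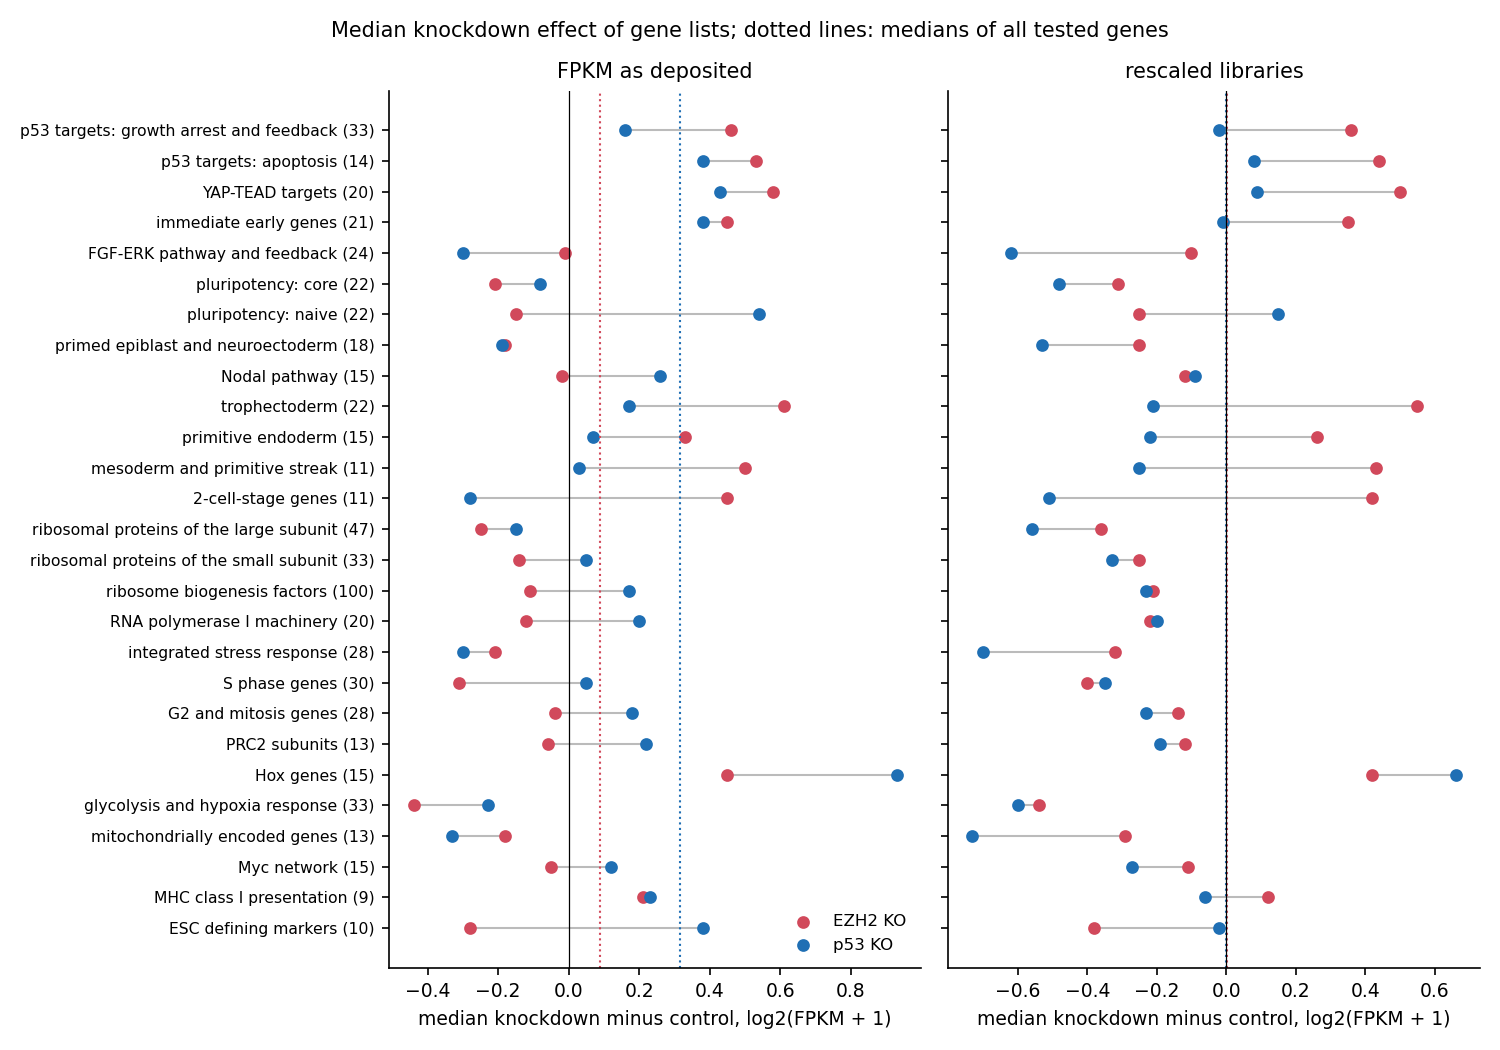
Median change with knockdown of gene lists with at least 9 tested members (number tested in brackets) in EZH2 KO and p53 KO, as difference of log2(FPKM + 1) on the x axis, from FPKM as deposited (left) and rescaled (right); dotted lines are the medians over all tested genes. As deposited the p53 target medians were 0.46 and 0.53 in EZH2 KO and 0.16 and 0.38 in p53 KO, and the naive pluripotency medians were -0.15 and 0.54.

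Of 3 entries at a ribosomal RNA locus, picked out after their values were seen, 1 had a called difference. Yam1 (chr17:39847112-39848035 on mm10), which overlaps an 18S rRNA pseudogene in RefSeq, read 29583 and 33690.4 FPKM in EZH2 KO controls and 34961 and 30944 FPKM with knockdown. In p53 KO it fell from 45752 and 53612 to 17308 and 19295 FPKM, with no overlap (difference 1.50, limma, adjusted p = 0.0462). Gm42418, which overlaps it, fell in p53 KO from 13689.6 and 14308 to 4595 and 6149.8 FPKM, and its difference of 1.46 missed as deposited and passed after rescaling (limma, adjusted p = 0.0517 and 0.0424). Gm26917 read 8044 and 7260.0 against 6058 and 11293 FPKM in p53 KO, which overlapped, and had a difference of -0.03 (adjusted p = 0.971). The falls of Yam1 and Gm42418 in p53 KO had the opposite sign to the shift of the median gene there. As FPKM is scaled to the reads of a library, these shifts are not independent, and a link between them was not tested. With knockdown in wild-type ESCs Yam1 also fell, from 22220 and 19111 to 9269 and 10542 FPKM. The wild-type changes were -1.06 for Yam1 and -0.80 for Gm42418, so these falls were not seen in p53 KO only.

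Actinomycin D (ActD), which at a low dose blocks ribosomal RNA synthesis, had been given at 10 ng/ml to ESCs and to p53 KO ESCs in 9 libraries that the knockdown comparison did not use; 5 are ESCs and 4 p53 KO, and the latter are identified by their titles while their source label names CJ9 mES cells. The corresponding difference is the ActD effect in ESCs minus that in p53 KO ESCs. It passed for 5641 of 15326 genes (36.8%), 17% higher and 19.8% lower. Of the 85 genes with a higher knockdown difference, 84 were tested with ActD, and 40 (47.6%) were higher there too and 21 (25%) lower. Of the 94 with a lower one, 92 were tested, and 28 (30.4%) were lower and 4 (4.35%) higher. After rescaling 34.9% of genes passed for ActD, and 80 of 158 higher genes (50.6%, background 20.3%) and 7 of 29 lower genes (24.1%, background 14.6%) passed in the same direction, while 35 (22.2%, background 14.6%) and 2 (6.9%, background 20.3%) passed in the opposite one. The comparison ESCs are not EZH2 KO cells, and ActD is not the knockdown.

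Taken by class, the ActD calls were as follows, beside 15.3% higher and 22.6% lower over all genes tested in both. Of the 26 genes that rose in EZH2 KO alone, 25 were tested with ActD and 21 (84%) were higher in ESCs, with none lower, and their median ActD change was 3.02 in ESCs and 0.14 in p53 KO. Ckm went from 0, 0.404 and 0.283 FPKM without ActD to 101 and 92.4 FPKM with it in ESCs, and read 0.392 and 0 against 0.153 and 0.151 FPKM in p53 KO. Msln was among the 4 that did not pass. Of the 11 opposite genes 7 were higher and 2 lower, and of the 63 genes that rose in both lines with knockdown 47 (74.6%) were higher and 1 lower. The 11 genes that fell in both lines had 9 lower and none higher. Of the 92 genes that rose in p53 KO alone 90 were tested, with 27 (30%) lower and 4 (4.44%) higher. The 45 genes that fell in p53 KO alone split, with 11 higher and 18 lower. Gbx2 and Etv4 are of the latter, with ActD differences of -1.12 and -1.83, and so is L1td1 with -3.63. Yam1, of the same class, fell with ActD in both, by 1.52 in ESCs and by 1.19 in p53 KO, and its ActD difference did not pass (limma, adjusted p = 0.146). Nanog, lower in the knockdown difference, was lower here as well (-4.24, limma, adjusted p = 2.91e-05), as it went from 104, 99.5 and 88.9 FPKM to 2.3 and 1.39 FPKM in ESCs and from 111 and 115 to 59 and 62 FPKM in p53 KO.

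**Figure D4:**
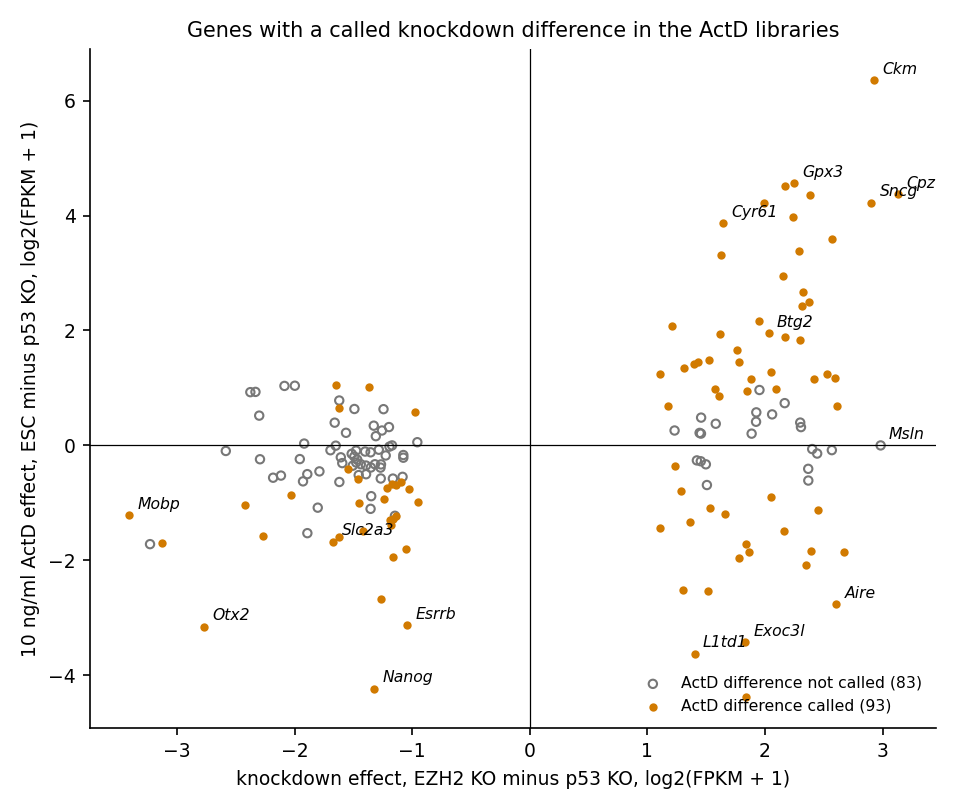
Genes with a called knockdown difference, with that difference on the x axis and the difference of the 10 ng/ml ActD effect (ESC minus p53 KO) on the y axis, both of log2(FPKM + 1); filled points passed for ActD. Of 84 higher genes 40 are called at the upper right and 21 at the lower right, and of 92 lower genes 28 at the lower left and 4 at the upper left.

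Wild-type ESCs with DDX18 knockdown are described by a table that lists selected genes only, so no test was made. Of the 85 genes with a higher difference 56 were listed, and in 50 (89.3%) the wild-type change lay closer to that in EZH2 KO than to that in p53 KO. The share was 28 of 34 (82.4%) for the lower genes and 65.6% of 4317 listed genes overall. All 22 listed genes of the EZH2 KO class and all 7 listed opposite genes lay closer to EZH2 KO. How genes were selected for listing is not given, and genes that did not change in wild-type ESCs may be missing. Such a selection would by itself place listed genes closer to the line in which they changed. These shares are therefore no separate support. Of the genes that rose in p53 KO alone 32 were listed, and 23 of them were higher in wild-type ESCs too (median change 0.45). Of those that fell in p53 KO alone 27 were listed, with 15 lower and 12 higher (median change -0.51). Among all 4317 listed genes 2438 were higher and 1879 lower. Cpz went from 1.61 and 1.13 to 23.6 and 21.3 FPKM in wild-type ESCs (change 3.31 beside 3.20 in EZH2 KO), and Sdc4 from 26 and 25.4 to 72.3 and 87.1 FPKM (1.59 beside 1.45). Exoc3l went from 21.3 and 20.3 to 8.12 and 7.75 FPKM, a change of -1.29 that lay between -0.68 in EZH2 KO and -2.51 in p53 KO. Of the same class, Aire, Foxd3 and Pdk1 also fell in wild-type ESCs (-1.40, -1.22 and -1.16), while Cars rose (0.41).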

How the data were processed

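The 8 RNA-seq libraries came as gene tables of FPKM computed by the authors, per the file headers, with 2 control (NT) and 2 knockdown columns per line. TopHat2 2.0.11, CASAVA, mm9 and mm10 are named per the submitters' processing notes, with no role given. The program that computed FPKM and its scaling between libraries are not given in the sources used here. Depth is unknown. Loci in the files overlapped the RefSeq GRCm38.p6 gene of the same symbol for 99.8% of 32903 matched symbols, so coordinates are mm10. Columns of 46685 symbols were joined, and 169 repeated entries were left out. Of the deposited values, 2 columns of no sample here were not used, and 1 item per table was not analysed here.

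Values were transformed to log2(FPKM + 1) and genes kept at 1 FPKM or more in at least 2 of the 8 libraries. Limma 3.58.1 (R 4.3.3) with a variance trend was fitted to all 8 libraries with 1 mean per group, giving each line's change and their difference, with Benjamini-Hochberg adjustment over all tested genes and a threshold of 0.05. The ActD effect was fitted alike in its own libraries. Fold changes of low genes are understated on this scale. Scripts were tested on simulated data. Tables were normalized separately, so tests compare changes within tables. Same-numbered samples did not deviate together (correlation -0.038 in EZH2 KO and -0.23 in p53 KO), so numbers were not used as pairs.

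The members and the 29 gene lists were chosen with earlier results of these data known. Genes named are Ddx18, Trp53 and Ezh2, then, among differences called under both scalings at a group mean of at least 5 FPKM with no overlap of the lines' differences, the 10 most positive and 10 most negative, 6 per class, and up to 3 called members per list or the one with the highest mean. That rule leaves Cyr61 for the class changed in both lines, so 12 genes with the same calls under both scalings and no overlap with controls were chosen there after values were seen. Some items chosen by these rules are not reported here. Cdkn1a, Mdm2, Perp, Plk2, Sfn, Ctgf, Tpi1, Yam1, the further class members listed by name, Nefm and the overlapping entries were also chosen after values were seen.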

Additional observations from a re-analysis of the deposited data

Results flagged for a closer look

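The following genes were picked out because the knockdown effect differed between the lines by a test of the difference itself (limma, adjusted p under 0.05, 2 libraries per group). Values are the log2 change in EZH2 KO minus that in p53 KO. Higher in EZH2 KO were Cpz (3.13), Msln (2.98), Ckm (2.93), Slc4a11 (2.57), Anxa3 (2.33), Ltb4r2 (2.24), Matn1 (2.17) and Btg2 (2.03), which rose in EZH2 KO alone. Sncg (2.90), Sdc4 (2.61), Pdzd2 (2.59), Mcee (2.53), Dgka (2.30), Anxa2 (2.17), Ddit4 (1.78) and Lamc1 (1.23) moved in opposite directions. Krt17 (2.67), Aire (2.61), Nefl (2.57), Gbx2 (2.45), Etv4 (2.39), Col1a1 (2.09), Myc (2.05), Exoc3l (1.83), Pdk1 (1.78), L1td1 (1.40), Foxd3 (1.36) and Cars (1.31) fell in p53 KO alone. That class does not exclude falls in EZH2 KO that did not pass, nor falls in wild-type ESCs. Cyr61 (1.64) rose in both lines.

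Lower in EZH2 KO were AL663030.1 (-4.84), Mobp (-3.41), Otx2 (-2.77), Ly6g6e (-2.58), Ist1 (-2.30), Ptch1 (-2.27), Aoc2 (-2.18), Eif4e (-2.12), Itfg2 (-2.03), Vps37d (-2.0), Gadd45a (-1.80), Slc2a3 (-1.67), Id3 (-1.49), Nanog (-1.32), Sall4 (-1.16) and Esrrb (-1.04), which rose in p53 KO alone. Tfap2c (-1.26) rose in both lines. Col1a1, a collagen chain, was the only 1 of 5 tested fibroblast markers with a called difference, beside 1.4% of all genes. It read 0.443 and 0.663 FPKM in EZH2 KO controls and 0.579 and 1.32 FPKM with knockdown. In p53 KO it read 4.82 and 4.66 FPKM in controls and 0.82 and 0.512 FPKM with knockdown.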

How the results depend on the processing

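The classification rests on 2 libraries per group and on the noise of the p53 KO libraries, and most counts moved by more than 1.5 times under some alternative. Numbers are given in the order genes with a called difference, changed in EZH2 KO, EZH2 KO alone, p53 KO alone, both and opposite, against 179, 214, 27, 137, 74 and 11. With a pseudocount of 0.1 they were 90, 86, 7, 78, 40 and 4. With no filter on low values they were 1, 87, 0, 0, 30 and 3. A stricter minimum of 5 FPKM gave 350 called differences, 278 genes in p53 KO alone and 18 opposite. Without a variance trend the called differences were 47, with 11 in EZH2 KO alone, 30 in p53 KO alone and 6 opposite. Weights by group gave 1105 genes changed in EZH2 KO, 1382 in p53 KO, 219 in both and 23 opposite. Rescaling left 1556 genes changed in p53 KO and 49 in both, and separate fits gave 999 in EZH2 KO and 380 in p53 KO.

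With the replicate number as a block there were 0 called differences (limma, 2225 genes at an unadjusted p under 0.05), 0 genes changed in EZH2 KO, 1128 in p53 KO and 0 in each class. With the p53 KO numbers crossed, an alternative chosen after seeing the data, the called differences were 0, with 8 genes changed in EZH2 KO and 0, 0, 4 and 0 in the classes. Replicate numbers are not known to pair samples. Leaving out each library in turn gave 0 to 622 called differences, 0 to 521 genes changed in EZH2 KO, 1175 to 2728 in p53 KO, and 0 to 83, 0 to 461, 0 to 182 and 0 to 44 in the classes; the group left with 1 library was assumed to vary like the others. The ActD count was 5641 and 4046 to 7242 over the libraries left out, within 1.5 times under all alternatives run. None of the 46 named differences that passed changed sign under any alternative in which it was tested. Among those that did not pass, rescaling changed the sign of 5, Irs2 (-0.10 to 0.19), Ptpn14 and Bax (-0.14 to 0.17) among them, and a pseudocount of 0.1 that of Hopx (-0.51 to 1.21), and leaving out a library that of 0 to 3. Rescaling ended 5 of the 46 named called differences, the smaller pseudocount 19 and no variance trend 27. Beside the 7 genes given above, those lost with the smaller pseudocount are AL663030.1, Ptch1, Aoc2, Itfg2, Vps37d, Cyr61, Myc, Nanog, Tfap2c, Cars, Pdk1 and Col1a1, with adjusted p (limma) from 0.0504 to 0.073.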
